A study of Mus musculus with 14 samples.

Results

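The complement components and receptors examined here are 9 genes chosen by name: C1qa, C1qb and C1qc, C4b, C3, Cfb, C3ar1, C5ar1 and Serping1. Each gene was represented by its single-symbol probe set of highest mean over the 14 arrays, and 8 of the 9 had one among 19935 genes in all. No probe set was listed for C3 in the annotation used here, so C3 was not analysed here. Left ventricles of male mice were profiled 3 weeks after surgery on 1 Affymetrix mouse Gene ST 1.0 array per mouse, in CXCR5-/- AB mice (n = 4), CXCR5-/- Sham mice (n = 3), WT AB mice (n = 4) and WT Sham mice (n = 3). AB, aortic banding, places a ligature around the ascending aorta so that the ventricle pumps against raised pressure, whereas no ligature was left in Sham mice. The CXCR5-/- mice lack the receptor of the chemokine CXCL13 in all cells, carry a neomycin resistance gene in place of the coding region, come from embryonic stem cells of another strain and were backcrossed to C57BL/6, and the WT mice were bought C57BL/6 animals. Genotype and source of the mice can therefore not be told apart. The sources used here did not give the ages of the mice.

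Complement is a cascade of plasma proteins that is best known from the liver, but macrophages and fibroblasts also make some of its parts. C1q, built from the chains of C1qa, C1qb and C1qc, binds immune complexes and dying cells and starts the classical pathway, in which C4 is cleaved. C3 is the point at which all pathways meet, and Cfb, factor B, forms with it the convertase of the alternative pathway. C3ar1 and C5ar1 encode the receptors of the small fragments C3a and C5a, and Serping1 encodes the C1 inhibitor, which blocks the proteases C1r and C1s.

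The genes of the C1q chains follow each other among protein-coding genes on chromosome 4 in the order C1qb, C1qc and C1qa, and C4b and Cfb lie near each other on chromosome 17. Promoters were listed in the RefSeq table for 5 of the 9 genes, with none for C1qa, C4b, Cfb or Serping1. The 250 bases before the start are shown for both listed C1q genes, which are neighbours and both rose after AB, and for C3ar1, the receptor gene that rose, in build GRCm38.p6. All of these genes are on the minus strand and their sequences are written in the direction of transcription. Capitals mark each match to a searched motif on either strand.

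C1qb, chr4:136886201-136886450: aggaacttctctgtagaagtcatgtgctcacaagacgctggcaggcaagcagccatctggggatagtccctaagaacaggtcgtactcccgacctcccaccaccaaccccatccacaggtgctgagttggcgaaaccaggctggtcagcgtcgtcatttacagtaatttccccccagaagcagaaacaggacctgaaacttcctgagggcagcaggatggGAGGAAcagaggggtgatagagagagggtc
C1qc, chr4:136892915-136893164: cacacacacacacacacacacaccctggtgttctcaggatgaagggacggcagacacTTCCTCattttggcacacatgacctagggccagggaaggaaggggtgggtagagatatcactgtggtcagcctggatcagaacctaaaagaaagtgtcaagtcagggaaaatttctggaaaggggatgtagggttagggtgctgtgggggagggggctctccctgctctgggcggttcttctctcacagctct
C3ar1, chr6:122856158-122856407: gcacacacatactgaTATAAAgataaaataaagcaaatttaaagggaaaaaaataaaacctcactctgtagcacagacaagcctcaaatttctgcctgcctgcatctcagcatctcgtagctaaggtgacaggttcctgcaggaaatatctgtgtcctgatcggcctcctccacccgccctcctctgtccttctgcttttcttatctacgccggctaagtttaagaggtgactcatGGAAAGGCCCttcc

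The motifs searched were the PU.1 type core GAGGAA, the gamma-activated site TTCNNNGAA, the interferon-stimulated element (GAAA, any 2 bases, GAAA), an NF-kB element (GGG, any 2 bases, TTTCC) and the TATA box TATAAA. The PU.1 type core was present once in C1qb, 30 to 25 bases before the start, and once in C1qc on the opposite strand, 193 to 188 bases before it, while 23.3% of 32851 mouse promoters of this length held it. C3ar1 held the NF-kB element on the opposite strand, 14 to 5 bases before the start (1.41% of promoters), and TATAAA 235 to 230 bases before it (12.4% of promoters). Neither the gamma-activated site (7.02% of promoters) nor the interferon-stimulated element (2.98%) was matched in any of the 5 promoters, and C3 and C5ar1 held none of the motifs. These matches are descriptions of the letters, and binding was not measured.

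Expression values are log2 values from robust multi-array average, so a difference of 1 is a doubling, and they may be compared between arrays for one probe set but not between probe sets. Array medians lay between 5.19 and 5.30. Genotypes are those of the labels. The Cxcr5 probe set was higher on the arrays labelled CXCR5-/- (3.85 to 4.47) than on WT arrays (3.03 to 3.30). Whether it lies in the replaced coding region is not known here, so it does not check the labels. Some arrays stood apart in genes of other tissues. Myl7, a light chain of atrial muscle, was high at 9.68, 8.82 and 9.09 on CXCR5-/- Sham 1, CXCR5-/- Sham 2 and WT Sham 1, against 5.65 to 7.49 elsewhere. Alb, the albumin gene of liver, was at 7.98 to 9.74 on CXCR5-/- AB 1 and 3, WT AB 4 and WT Sham 1 and 3, against 3.98 to 6.01 elsewhere. Results were also computed without these arrays, a choice made after the values were seen.

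Most of the measured complement genes were higher after AB in both genotypes. In CXCR5-/- mice 7 of the 8 measured genes rose after AB, where 8.28% of all genes rose. In WT mice 5 of the 8 rose, where 5.1% of all genes did. Calls were by limma with the Benjamini-Hochberg adjustment over all genes. The genes were chosen with earlier results of these data known, so these counts describe them and are no independent test. The median log2 difference of the 8 genes was 0.87 in CXCR5-/- mice and 0.64 in WT mice, against -0.01 and 0.01 over all genes. None of the 8 fell, where 5.86% of all genes fell in CXCR5-/- mice and 4.22% in WT mice. The C1q chains, Cfb and Serping1 rose in both genotypes, C3ar1 and C4b passed in CXCR5-/- mice only, and C5ar1 passed in neither. The difference between these responses did not pass for any gene, as described with the comparisons of genotypes. With 1650 genes higher and 1168 lower in CXCR5-/- mice, scaling each array to the same median gave 1346 higher and 1450 lower, and in WT mice the counts were 1016 higher and 842 lower, and 794 higher and 980 lower after that scaling. The directions of the 8 genes after AB were the same under each scaling.

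**Figure D1:**
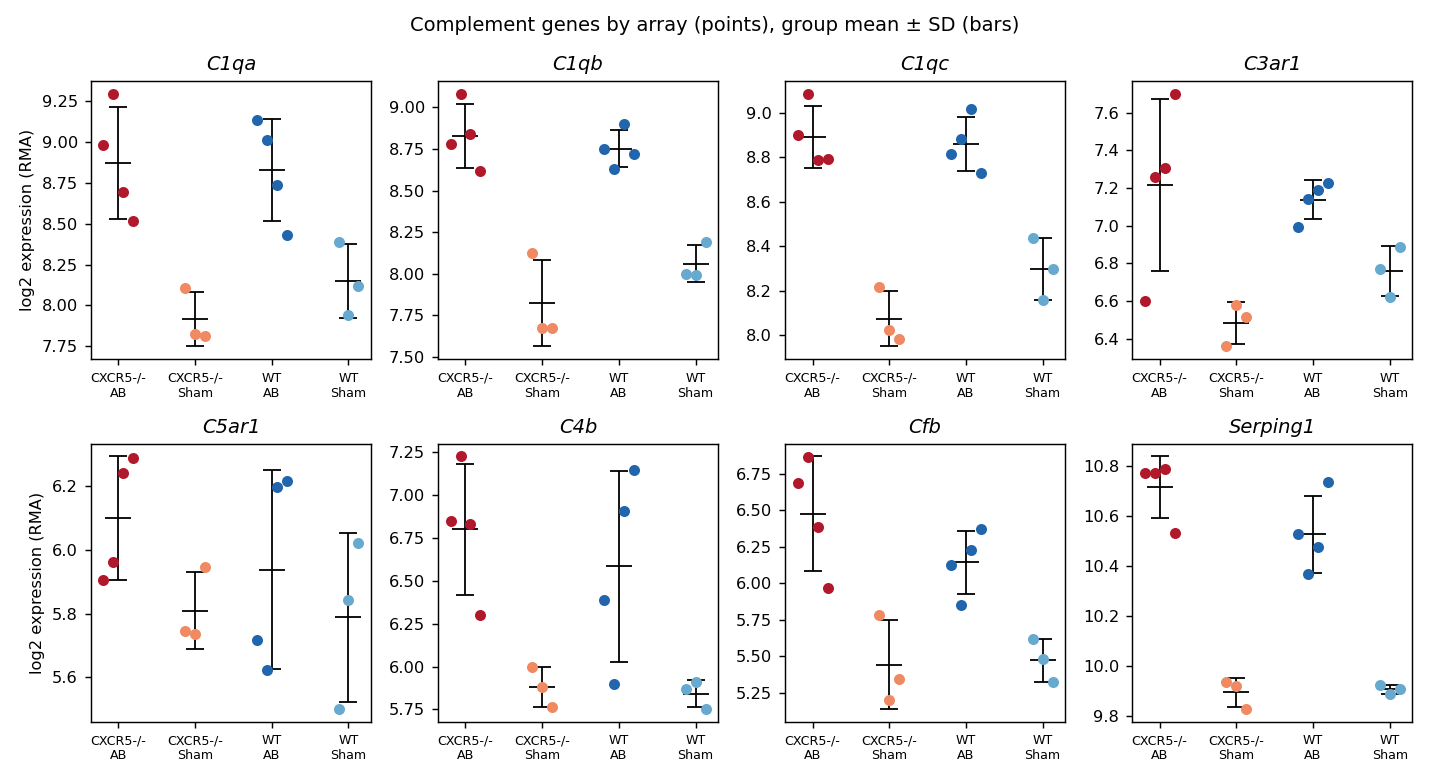
Log2 expression of the 8 measured complement genes on each array (points, 1 per mouse) by group, with the group mean ± SD (bars) and a separate axis for each gene. For C1qa, C1qb, C1qc, Cfb and Serping1 all 8 AB arrays lie above all 6 Sham arrays, while the groups overlap for C5ar1.

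C1qa, the gene of the A chain, was at 8.98, 9.29, 8.69 and 8.51 in CXCR5-/- AB hearts, against 8.11, 7.82 and 7.82 in CXCR5-/- Sham hearts. In WT mice it was at 9.13, 9.01, 8.74 and 8.43 in AB hearts, against 8.39, 7.94 and 8.12 in Sham hearts. Every AB heart was above every Sham heart, although the lowest WT AB heart was close to the highest WT Sham heart. C1qa rose 1.94-fold in CXCR5-/- mice (95% confidence interval 1.49 to 2.52, adjusted p = 0.00145) and 1.60-fold in WT mice (1.23 to 2.08, adjusted p = 0.023). The call in WT mice was lost without WT AB replicate 1 or 2, without WT Sham replicate 2 or 3 and without the arrays of high Alb (adjusted p = 0.0546), with adjusted p between 0.000487 and 0.129 over the limma alternatives.

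C1qb, the B chain, was at 8.78, 9.08, 8.84 and 8.62 in CXCR5-/- AB hearts, against 8.12, 7.67 and 7.67 in CXCR5-/- Sham hearts. Among WT mice it was at 8.75, 8.63, 8.90 and 8.72 in AB hearts, against 8.0, 7.99 and 8.19 in Sham hearts. The WT groups were separated by more than the range of either, and CXCR5-/- Sham replicate 1 was the Sham heart of that genotype nearest to the AB hearts. C1qb rose 2.01-fold in CXCR5-/- mice (1.67 to 2.41, adjusted p = 3.72e-05) and 1.61-fold in WT mice (1.34 to 1.94, adjusted p = 0.00176).

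C1qc, the C chain, was at 8.90, 9.09, 8.79 and 8.79 in CXCR5-/- AB hearts, against 8.22, 8.02 and 7.98 in CXCR5-/- Sham hearts. In WT mice the values of C1qc were 8.81, 8.88, 9.02 and 8.73 in AB hearts, against 8.44, 8.16 and 8.30 in Sham hearts. The AB hearts of both genotypes covered nearly the same range, all above the Sham hearts. C1qc rose 1.76-fold in CXCR5-/- mice (1.51 to 2.06, adjusted p = 5.18e-05) and 1.48-fold in WT mice (1.27 to 1.72, adjusted p = 0.00225). Both calls for C1qc held under every alternative run.

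C4b, the fourth component that C1s cleaves, was at 6.85, 7.23, 6.83 and 6.30 in CXCR5-/- AB hearts, against 6.00, 5.88 and 5.76 in CXCR5-/- Sham hearts. For WT mice the values of C4b were 6.39, 5.90, 6.90 and 7.15 in AB hearts, against 5.87, 5.91 and 5.75 in Sham hearts. The WT AB hearts were the most spread (SD 0.558), and replicate 2 was within the WT Sham range, so these groups overlapped. C4b rose 1.89-fold in CXCR5-/- mice (1.35 to 2.65, adjusted p = 0.0113), and in WT mice its 1.67-fold difference (1.19 to 2.34) did not pass (adjusted p = 0.0531). The call in CXCR5-/- mice was lost without CXCR5-/- Sham replicate 3, without the 3 Sham arrays of high Myl7 (adjusted p = 0.174) and without the 5 arrays of high Alb (adjusted p = 0.0658), over alternatives between 0.000696 and 0.174. The log2 difference was 0.92 on all arrays, 1.04 without the arrays of high Myl7, when 1 CXCR5-/- Sham array was left, and 0.88 without those of high Alb. In WT mice C4b passed without WT AB replicate 2, without CXCR5-/- AB replicate 2 or 4, with array weights and after a filter on dim probe sets, over alternatives between 0.00496 and 0.566. C4b and C4a are near-identical copies, and how far their probe sets read each other's transcript is uncertain.

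Cfb was at 6.69, 6.86, 6.39 and 5.96 in CXCR5-/- AB hearts, against 5.79, 5.20 and 5.35 in CXCR5-/- Sham hearts. In WT mice it was at 6.12, 5.85, 6.22 and 6.37 in AB hearts, against 5.62, 5.48 and 5.32 in Sham hearts. CXCR5-/- AB replicates 1 and 2 were the highest of all hearts and replicate 4 was the lowest of its group. Cfb rose 2.04-fold in CXCR5-/- mice (1.56 to 2.67, adjusted p = 0.000899) and 1.59-fold in WT mice (1.22 to 2.08, adjusted p = 0.028). The call in WT mice was lost without WT AB replicate 1, 3 or 4, without WT Sham replicate 2 or 3 and without the arrays of high Alb (adjusted p = 0.356), over alternatives between 0.00864 and 0.356.

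Serping1 was at 10.78, 10.77, 10.79 and 10.53 in CXCR5-/- AB hearts, against 9.94, 9.92 and 9.83 in CXCR5-/- Sham hearts. Among WT mice it was at 10.53, 10.37, 10.48 and 10.74 in AB hearts, against 9.93, 9.89 and 9.91 in Sham hearts. The Sham hearts of both genotypes lay within a narrow range, well below every AB heart. Serping1 rose 1.77-fold in CXCR5-/- mice (1.53 to 2.04, adjusted p = 2.22e-05) and 1.54-fold in WT mice (1.33 to 1.77, adjusted p = 0.00055).

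C3ar1, the C3a receptor, was at 6.60, 7.26, 7.31 and 7.70 in CXCR5-/- AB hearts, against 6.36, 6.58 and 6.51 in CXCR5-/- Sham hearts. In WT mice it was at 6.99, 7.14, 7.19 and 7.23 in AB hearts, against 6.77, 6.62 and 6.89 in Sham hearts. CXCR5-/- AB replicate 1 was barely above its Sham group, and the other 3 CXCR5-/- AB hearts were the highest of all. C3ar1 rose 1.66-fold in CXCR5-/- mice (1.29 to 2.14, adjusted p = 0.00729), and in WT mice its 1.30-fold difference (1.01 to 1.67) did not pass (adjusted p = 0.211), although the WT groups did not overlap. Without the 3 Sham arrays of high Myl7 the rise in CXCR5-/- mice did not pass (adjusted p = 0.214, over alternatives between 0.000104 and 0.214), where 1 CXCR5-/- Sham array was left and the log2 difference was 0.70, against 0.73 on all arrays. Significance analysis of microarrays called the WT difference.

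C5ar1, the C5a receptor, was at 5.90, 5.96, 6.24 and 6.29 in CXCR5-/- AB hearts, against 5.74, 5.74 and 5.95 in CXCR5-/- Sham hearts. For WT mice the values of C5ar1 were 5.72, 5.62, 6.20 and 6.21 in AB hearts, against 5.50, 5.84 and 6.02 in Sham hearts. The AB and Sham hearts overlapped in both genotypes, and in each of them AB replicates 1 and 2 were below replicates 3 and 4. The difference was 1.22-fold in CXCR5-/- mice (0.972 to 1.54, adjusted p = 0.271) and 1.11-fold in WT mice (0.882 to 1.40, adjusted p = 0.673), so intervals included both no change and a rise.

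AB hearts were above Sham hearts without overlap for 7 of the 8 genes in CXCR5-/- mice, where 13.7% of all genes behaved in this way, and for 6 of the 8 in WT mice, where 9.39% did. For 5 of the 8 genes all 8 AB arrays were above all 6 Sham arrays, which held for 5.45% of all genes. Averaged over the genotypes 7 of the 8 rose, where 12.3% of all genes rose. In bulk tissue, more cells of a type and more RNA per cell cannot be told apart.

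**Figure D2:**
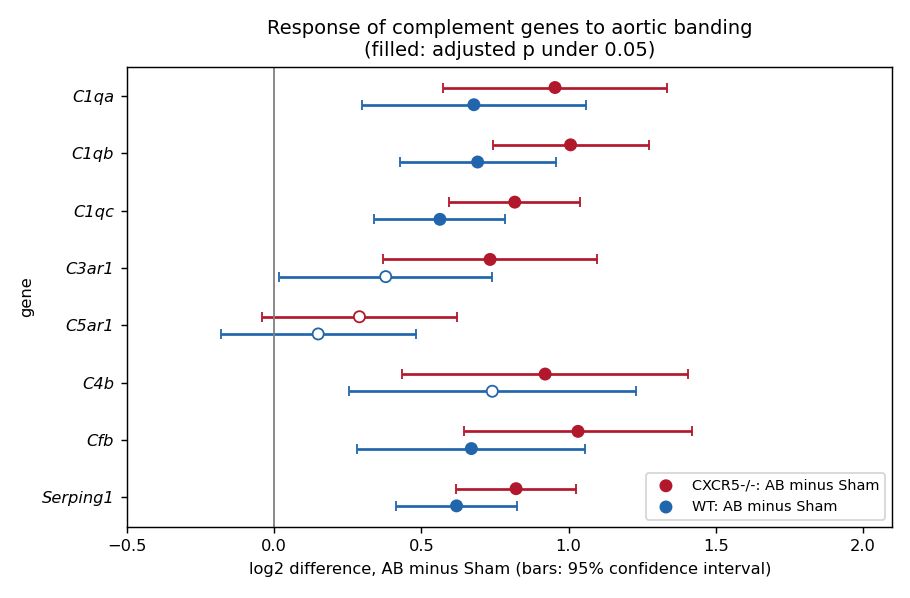
Log2 difference of AB minus Sham for each complement gene in CXCR5-/- mice and in WT mice (points) with its 95% confidence interval from limma (bars). The CXCR5-/- estimate is to the right of the WT estimate for all 8 genes, between 0.14 for C5ar1 and 0.36 for Cfb on the log2 scale, and the intervals of each pair overlap.

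The comparison of the responses asked whether absence of CXCR5 altered the complement response to AB. The response was larger in CXCR5-/- than in WT mice for 8 of the 8 genes, by 0.14 for C5ar1 to 0.36 for Cfb on the log2 scale, but none passed (adjusted p = 0.9998 for each), and none had an unadjusted p under 0.05, where 0% of all genes passed. In simulated arrays with 200 of 19935 genes changed, 0% of response differences of 0.5 were called, and 78.5% of those of 1. The 8 differences share arrays and are not independent of each other. For C1qb the difference of responses was 0.32 (95% confidence interval -0.06 to 0.69) and for C1qc it was 0.25 (-0.06 to 0.57), and both intervals include 0 as well as 0.5.

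Genotypes were also compared within each operation. After Sham operation the C1q chains were lower in CXCR5-/- than in WT hearts by estimates of -0.23 for C1qa, -0.24 for C1qb and -0.22 for C1qc on the log2 scale, and C3ar1 by -0.28, while C4b, Cfb, Serping1 and C5ar1 differed by at most 0.04 either way. C3ar1 was lower in each CXCR5-/- Sham heart than in each WT Sham heart, as were 3.57% of all genes. None of the 8 passed between the Sham groups (adjusted p = 0.9999 for each), where 0.0401% of all genes did. After AB the estimates were above 0 for 8 of the 8 genes, the largest being 0.33 for Cfb (95% confidence interval -0.03 to 0.69, adjusted p = 0.858), 0.22 for C4b and 0.19 for Serping1 (adjusted p = 0.838), and 0.03 to 0.08 for the C1q chains. None of the 8 passed between the AB groups, where 0.0451% of all genes did, and the groups overlapped for each gene. Averaged over the operations none of the 8 passed between genotypes, where 0.0953% of all genes did. At an unadjusted p under 0.05 the counts in limma were also 0 in each of these comparisons, and significance analysis of microarrays called 0 of the 8 after AB and 0 after Sham operation.

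Within groups the genes varied together to different degrees. Deviations of the 14 arrays from their group means were correlated at r = 0.72 for C1qa and C1qc, 0.69 for C1qb and C1qc and 0.47 for C1qa and C1qb, and at r = 0.82 for C4b and Serping1, 0.79 for C4b and Cfb and 0.71 for Cfb and Serping1. Between these sets r was 0.71 for C1qb and Cfb, 0.55 for C1qb and C4b, 0.54 for C1qc and Cfb and 0.45 for C1qa and Cfb, against -0.05 for C1qa and C4b and -0.01 for C1qa and Serping1. In WT AB hearts replicate 2 was the lowest and replicate 4 the highest for C4b, Cfb and Serping1, and in CXCR5-/- AB hearts replicate 4 was the lowest for each. For the receptors r was 0.49 between C3ar1 and C5ar1 and -0.56 between C3ar1 and Cfb, and C5ar1 was at -0.79 with C1qa, -0.38 with C1qc, 0.05 with C1qb, 0.33 with C4b and 0.12 with Serping1. In both genotypes AB replicates 1 and 2 were above replicates 3 and 4 for C1qa and below them for C5ar1. The AB arrays of both genotypes also parted in this way across all genes, as described with the processing. These are descriptions over 14 arrays with 4 group means removed, and the genes share the same RNA and arrays.

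**Figure D3:**
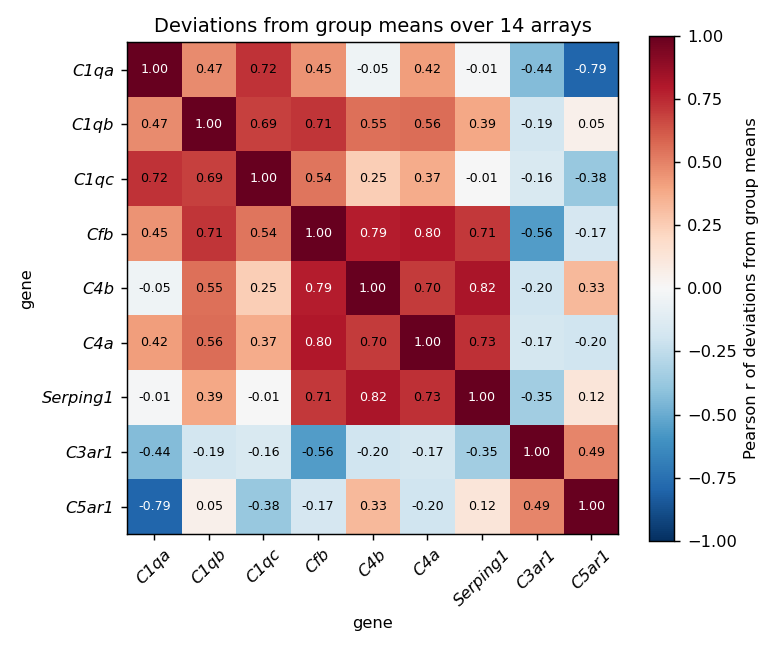
Pearson correlations between genes of the deviations of the 14 arrays from their group means, for the 8 complement genes and C4a (colour and number, from -1 to 1). C4b, Cfb, C4a and Serping1 form a block of r = 0.70 to 0.82, and C1qa is at -0.79 with C5ar1.

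The genes most like each member in these deviations were sought among 9627 genes of above-median level. The mean of the C1q chains was most like Atf5 (r = 0.92), Ppp1r14b (0.91) and Igfbp6 (0.91), and C3ar1 was most like Tmem229b (0.91), Sh3kbp1 (0.87) and Prr14 (0.87). C5ar1 was most like Ppp2r5d (0.96), Setd1a (0.96) and Tbrg4 (0.96), and C4b was most like Slit3 (0.94), Arid5a (0.89) and Tpcn2 (0.89). Cfb was most like Litaf (0.91), Apoe (0.90) and Atf1 (0.88), and Serping1 was most like Myh7 (0.96), Itgb5 (0.90) and Fbln1 (0.90). Each is the extreme of many correlations over 14 arrays and is given as a description.

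Other complement genes were read from a list by function, and 46 of its 51 genes were measured. After AB 10 of the 46 rose in CXCR5-/- mice, where 8.28% of all genes rose, and 8 rose in WT mice, where 5.1% did. Averaged over genotypes 14 of the 46 rose, where 12.3% of all genes did, and none fell in any of these comparisons. Their median log2 difference was 0.13 in CXCR5-/- mice and 0.02 in WT mice, against -0.01 and 0.01 over all genes. In limma none of the 46 passed between genotypes or in the difference of responses, where unadjusted p values under 0.05 were found for 5 genes between the AB groups, 3 between the Sham groups and 3 in the difference of responses, and significance analysis of microarrays called 0 between the AB groups and 0 between the Sham groups.

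Among 17 genes of classical and lectin initiation 5 rose in CXCR5-/- mice and 4 in WT mice. C1s1, a mouse gene of the protease C1s that Serping1 inhibits, was at 7.23, 7.31, 7.17 and 6.77 in CXCR5-/- AB hearts, against 6.43, 6.38 and 6.27 in CXCR5-/- Sham hearts. In WT mice C1s1 was at 6.79, 6.88, 6.70 and 7.13 in AB hearts, against 6.62, 6.25 and 6.31 in Sham hearts. Neither pair of groups overlapped, and C1s1 rose by 0.76 on the log2 scale in CXCR5-/- mice (adjusted p = 0.000783) and by 0.48 in WT mice (adjusted p = 0.0285). Masp1, a protease of the lectin pathway, rose by 0.70 (adjusted p = 0.000113) and 0.46 (adjusted p = 0.0064) in CXCR5-/- and WT mice, and Colec12, a scavenger collectin, by 0.56 (adjusted p = 0.00413) and 0.45 (adjusted p = 0.0247). C1ra, a gene of the protease C1r, rose by 0.54 in CXCR5-/- mice (adjusted p = 0.0237), with 0.45 in WT mice (adjusted p = 0.0783), and C1s2 rose by 0.48 in CXCR5-/- mice (adjusted p = 0.0115), with 0.32 in WT mice (adjusted p = 0.118). Ptx3, a long pentraxin, rose by 0.45 in WT mice (adjusted p = 0.028), with 0.28 in CXCR5-/- mice (adjusted p = 0.161). The calls of C1s1, Masp1 and Colec12 in CXCR5-/- mice held under all 26 alternatives, and those in WT mice under 21, 25 and 20 of 26. The call of C1ra in CXCR5-/- mice held under 19 of 26 (adjusted p up to 0.291), that of C1s2 under 22 of 26 (up to 0.232), and that of Ptx3 in WT mice under 17 of 26 (up to 0.686, with a log2 difference of 0.21 to 0.54). C4a, the near copy of C4b, passed only averaged over genotypes, by 0.50 (adjusted p = 0.0109).

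Among 8 receptors 4 rose in CXCR5-/- mice and 3 in WT mice. Vsig4, a macrophage receptor of C3 fragments, was at 5.26, 6.87, 5.08 and 6.13 in CXCR5-/- AB hearts, against 4.48, 4.33 and 4.27 in CXCR5-/- Sham hearts. In WT mice Vsig4 was at 6.00, 5.58, 5.80 and 5.38 in AB hearts, against 4.72, 4.26 and 4.23 in Sham hearts. The CXCR5-/- AB hearts were widely spread, all above the Sham hearts, and Vsig4 rose by 1.48 on the log2 scale in CXCR5-/- mice (adjusted p = 0.00244) and by 1.28 in WT mice (adjusted p = 0.0103), the largest differences of the 46 genes in both. Itgam and Itgb2, the chains of complement receptor 3, rose by 0.65 (adjusted p = 0.00729) and 0.47 (adjusted p = 0.00365) in CXCR5-/- mice. Their rises in WT mice were 0.59 (adjusted p = 0.0195) and 0.55 (adjusted p = 0.00167). The calls of Vsig4, Itgam and Itgb2 in WT mice held under 24, 21 and 25 of 26 alternatives. That of Itgam was lost without WT AB replicate 1 or WT Sham replicate 1 or 2. It was also lost without the 3 Sham arrays of high Myl7 and without the 5 arrays of high Alb. The log2 differences of Itgam in WT mice were then 0.56 and 0.65, and 1 WT Sham array was left in the latter. The call of Itgb2 was lost without the 5 arrays of high Alb, and that of Vsig4 without WT Sham replicate 2 or 3. Cd93, once described as a C1q receptor, rose by 0.47 in CXCR5-/- mice (adjusted p = 0.0108), with 0.36 in WT mice (adjusted p = 0.0626). Itgax, the chain of complement receptor 4, passed only averaged over genotypes, by 0.25 (adjusted p = 0.0235). The call of Itgax held under 17 of 23 alternatives, with a log2 difference of 0.10 to 0.31. Without the 3 Sham arrays of high Myl7, when 1 CXCR5-/- Sham array was left, none of the 4 receptors passed in CXCR5-/- mice in limma, and the log2 differences were 1.57 for Vsig4 (adjusted p = 0.0959), 0.79 for Itgam (adjusted p = 0.0923), 0.54 for Itgb2 (adjusted p = 0.0753) and 0.34 for Cd93 (adjusted p = 0.327). Cd93 also did not pass without the arrays of high Alb (0.38, adjusted p = 0.0901).

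Of 13 regulators only Cd55, which speeds the decay of convertases, rose in each genotype, by 1.02 in CXCR5-/- mice (adjusted p = 0.000805) and 0.75 in WT mice (adjusted p = 0.0119), and Clu, clusterin, passed averaged over genotypes, by 0.23 (adjusted p = 0.0464). The call of Clu held under 8 of 24 alternatives (adjusted p up to 0.407). Without the 3 Sham arrays of high Myl7 the difference of Cd55 in CXCR5-/- mice was 0.97 and did not pass. The call of Cd55 in WT mice held under 24 of 26 alternatives. None of the 7 terminal components passed in limma after AB, where 8.28% of all genes rose in CXCR5-/- mice and 5.1% in WT mice. A count of 0 among 7 genes is near these shares. Unadjusted p in limma was under 0.05 for 1 of the 7 in CXCR5-/- mice and 0 in WT mice. Significance analysis of microarrays called 0 in either genotype. Averaged over genotypes the smallest p in limma were those of C8g (-0.19, adjusted p = 0.275) and C6 (0.10, adjusted p = 0.477). Except for C7, the terminal probe sets were dim, with mean log2 levels of 3.15 (C9) to 4.94 (C8g) against 5.74 for the median gene. Robust multi-array average compresses differences of such probe sets. Cfp, properdin, the measured gene of the alternative pathway list, did not pass (0.02 in CXCR5-/- mice, below 0 after quantile normalization and after median scaling, and 0.28 in WT mice).

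**Figure D4:**
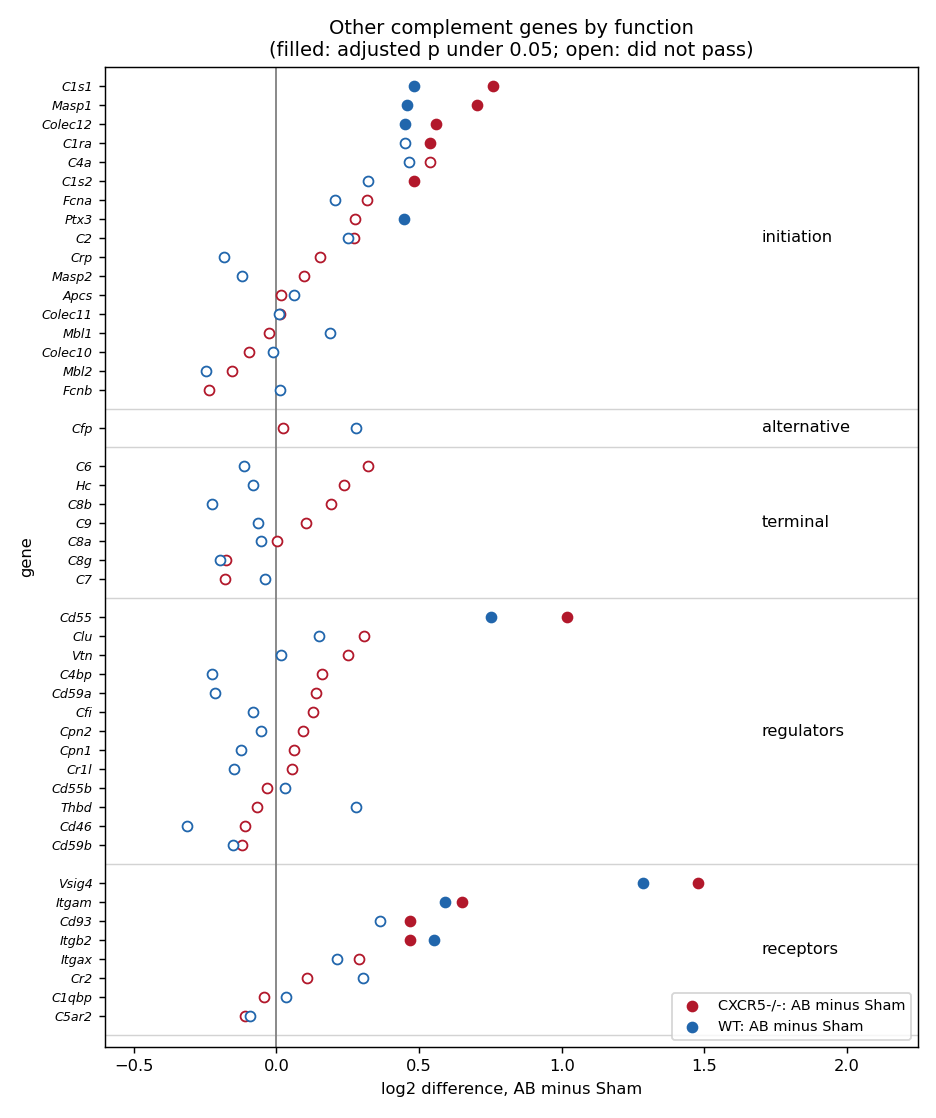
Log2 difference of AB minus Sham for 46 other complement genes in CXCR5-/- mice and in WT mice, in 5 groups by function, with filled points for genes that passed (adjusted p under 0.05). Filled points are found among initiation genes, receptors and Cd55, and none among the 7 terminal components, whose probe sets were dim except for C7. Of all genes, 8.28% rose in CXCR5-/- mice and 5.1% in WT mice.

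Markers of cells known to make complement proteins moved with AB as well. Of all genes, 8.28% rose and 5.86% fell in CXCR5-/- mice, and 5.1% rose and 4.22% fell in WT mice. Averaged over genotypes 12.3% of all genes rose. Among 10 macrophage markers 6 rose in CXCR5-/- mice and 4 in WT mice, and their mean level was 6.86 to 7.13 in CXCR5-/- AB hearts, against 6.43 to 6.45 in CXCR5-/- Sham hearts, and 6.77 to 6.96 in WT AB hearts, against 6.51 to 6.57 in WT Sham hearts. Cd68, a macrophage lysosomal protein, rose by 1.09 in CXCR5-/- mice (adjusted p = 5.53e-05) and by 0.86 in WT mice (adjusted p = 0.000807). Adgre1 rose by 0.51 in CXCR5-/- mice (adjusted p = 0.0015), and its mean in WT mice was 6.69 in AB hearts, against 6.38 in Sham hearts. Cd163, a marker of resident macrophages, fell by 0.45 averaged over genotypes (adjusted p = 0.0346). Among 8 fibroblast markers 6 rose in CXCR5-/- mice, and 3 rose and 1 fell in WT mice. The estimates were above 0 for 6 of the 8 in each genotype, and Gsn and Dpep1 were below 0 in both. The mean level of the list was 9.33 to 9.60 in CXCR5-/- AB hearts, against 8.61 to 8.88 in CXCR5-/- Sham hearts. In WT mice it was 9.03 to 9.61 in AB hearts, against 8.71 to 8.81 in Sham hearts. Among 7 measured interferon response genes 3 rose in CXCR5-/- mice and 1 in WT mice. Of 6 cardiomyocyte markers 3 fell in CXCR5-/- mice and 1 fell in WT mice, with mean levels of 12.03 to 12.18 in CXCR5-/- AB hearts, against 12.31 to 12.33 in CXCR5-/- Sham hearts, and 12.10 to 12.16 in WT AB hearts, against 12.33 to 12.34 in WT Sham hearts. Of 5 neutrophil markers 0 rose in CXCR5-/- mice and 1 in WT mice, and 2 rose averaged over genotypes, as did 2 of 3 B cell markers. Of 5 endothelial markers 1 rose in each genotype, and none of 4 T cell or 3 atrial markers passed after AB. The part of these cells in the rise of the complement genes was not tested.

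**Figure D5:**
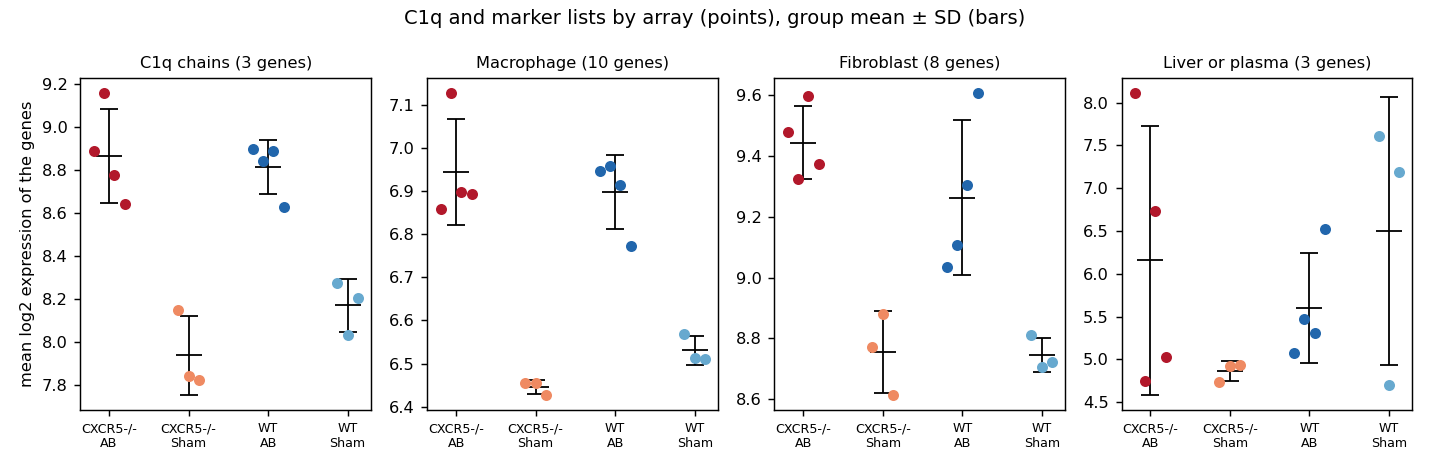
Mean log2 expression of the C1q chains and of the macrophage, fibroblast and liver or plasma marker lists on each array (points) by group, with the group mean ± SD (bars). The C1q, macrophage and fibroblast means are higher on all AB arrays than on all Sham arrays, and the liver or plasma mean varies within groups.

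The 3 liver or plasma markers differed after AB in opposite directions in the genotypes, with all 3 above 0 in CXCR5-/- mice (median log2 difference 1.05) and all 3 below 0 in WT mice (median -1.04). The difference of responses was above 0 for all 3 (median 2.09), the same direction as the estimates of the 8 complement genes, and its part in them was not tested. Their mean level was 4.75 to 8.11 in CXCR5-/- AB hearts, against 4.73 to 4.94 in CXCR5-/- Sham hearts, and 5.08 to 6.53 in WT AB hearts, against 4.71 to 7.61 in WT Sham hearts, and none of the 3 passed after AB. Without the 5 arrays of high Alb 6 of the 8 complement genes still rose in CXCR5-/- mice, and 1 (C1qc) rose in WT mice, when 1069 and 309 of 19935 genes rose, and where 3 WT AB arrays and 1 WT Sham array were left and the lone array was assumed to vary like the other groups. The log2 differences of the other 4 genes called in WT mice were then 1.02 for C1qa, 0.77 for C1qb, 0.59 for Cfb and 0.57 for Serping1. Without the 3 Sham arrays of high Myl7 the counts were 5 in CXCR5-/- mice, with 1 CXCR5-/- Sham array left, and 5 in WT mice, when 542 and 775 of 19935 genes rose.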

How the data were processed

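Each of 14 left ventricles was measured on its own array, and groups and replicate numbers were taken from the sample labels. The authors summarised probe sets by robust multi-array average, and the deposited log2 values (0.742 to 13.5) were used without further change. All 14 columns were used, and the sources used here do not give the tool's version. Robust multi-array average compresses differences of dim probe sets, and the number of arrays limits the precision. At most 47 probe sets had identical values on any 2 arrays.

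Of 34760 probe sets, the annotation gave 21640 a single gene symbol and 1321 more than one, and did not list 11799. Symbols were updated through the RefSeq table of GRCm38.p6, which 21556 of those with 1 symbol matched, and each gene was represented by its probe set of highest mean. Dim probe sets were kept.

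One limma fit (version 3.58.1, R 4.3.3) of 4 group means was made, leaving 10 residual degrees of freedom. Adjusted p values are Benjamini-Hochberg values over 19935 genes and were called below 0.05. Significance analysis of microarrays, for which the methods give a false discovery rate limit of 0.05 and no other setting, served as an alternative. Members and lists were chosen with earlier results of these data known. Other complement genes are named where they passed in an AB or genotype comparison, and in a function class where none passed the 2 of smallest p are named. Markers, Myl7, Alb and Cxcr5 are named beside the results they touch.

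Same-numbered CXCR5-/- AB and WT AB arrays deviated together from their group means (r 0.125 to 0.22 across genes). Between the genotypes, replicates 1 and 2 were at r = 0.0756 to 0.456 with replicates 1 and 2. Replicates 3 and 4 were at 0.157 to 0.419 with replicates 3 and 4, and pairs across these sets were at -0.417 to -0.0634. The AB arrays of both genotypes therefore shared a split of replicates 1 and 2 from 3 and 4, whose source was not tested. The labels give the numbers no meaning, and single numbers are a weak basis for pairs. The scripts were tested on simulated data. Alternatives were array weights, a trended variance, removal of probe sets below the 30th percentile of level, quantile normalization or median scaling, other choices of probe set, fits of 2 groups, a term for replicate number as a block, and omission of single arrays.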

Additional observations from a re-analysis of the deposited data

Results flagged for a closer look

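Serping1 in CXCR5-/- AB replicate 4 was at 10.53 on the log2 scale, while the other 3 CXCR5-/- AB hearts were between 10.77 and 10.79. The gap to the nearest heart was 0.939 of the range of the group, which is beyond the limit of Dixon's test for 4 arrays. It was the single such value among 50 groups of 4 arrays examined over the complement genes named here, and chance gives about 1 in 20 groups. The value remained above every Sham heart, and C4b and Cfb were also lowest on this array among the CXCR5-/- AB hearts.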

How the results depend on the processing

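The count of complement genes that rose in WT mice was 5, when 1016 of 19935 genes rose. With each array left out in turn it was 3 to 6. It was 3 without WT AB replicate 1, WT Sham replicate 2 or WT Sham replicate 3, when 758, 560 and 611 genes rose. Without the 5 arrays of high Alb, an alternative added after the data were seen, it was 1, where fewer arrays remained. In CXCR5-/- mice the count was 7, and 6 to 7 with arrays left out in turn. With replicate number as a block the counts were 7 in CXCR5-/- mice and 5 in WT mice, when 2027 and 1354 of 19935 genes rose. The block changed the calls of C1ra (0.53, adjusted p = 0.017) and C1s2 (0.38, adjusted p = 0.0348) in WT mice, which then passed. Clu averaged over genotypes (0.20, adjusted p = 0.0793) then did not pass. The block changed no other call among the complement genes named. After AB 1650 genes were higher in CXCR5-/- mice and 1016 in WT mice, with array weights 2632 and 1775, without the Sham arrays of high Myl7 542 and 775, and without the arrays of high Alb 1069 and 309, and without WT Sham replicate 2 or 3 the count in WT mice was 560 or 611.

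Among the genes named, direction changed only for differences that had not passed. Between the AB groups C1qa was at -0.0172 with array weights and -0.0562 without the arrays of high Alb, and C1qc at -0.0020 with array weights. The response difference of C1qa was -0.0296 without the arrays of high Alb. Between the Sham groups C4b was at -0.0702 with array weights, -0.0662 without the Sham arrays of high Myl7 and -0.0278 without those of high Alb, C5ar1 was at -0.0344 without those of high Alb, and Serping1 was at 0.0050 after quantile normalization and 0.0073 without those of high Alb. C3ar1 between genotypes averaged over operations was 0.12 without the arrays of high Alb. After AB Cfp in CXCR5-/- mice was -0.0145 after quantile normalization and -0.0194 after median scaling, and in WT mice without the arrays of high Alb C8g was 0.0491 and Itgax -0.0791. With arrays left out in turn, differences between the AB groups were -0.0990 to 0.16 for C1qa, -0.0064 to 0.15 for C1qb, -0.0332 to 0.0840 for C1qc, -0.0833 to 0.28 for C3ar1 and -0.0119 to 0.41 for C4b. Those between the Sham groups were -0.0212 to 0.0961 for C4b, -0.12 to 0.14 for C5ar1, -0.20 to 0.0929 for Cfb and -0.0336 to 0.0207 for Serping1. The response difference of C4b was -0.0497 to 0.37, C3ar1 averaged over operations was -0.18 to 0.0034, and Cfp in CXCR5-/- mice after AB was -0.0351 to 0.12. The causes were not tested.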
